A study of Mus musculus with 3 samples.

Results

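Infusion of INSL6 during isoproterenol treatment was followed across the genes of the mouse left ventricle as the difference between the Iso+Insl6 array and the Iso array. Of 25206 probe sets, each standing for 1 gene, 12854 reached the background level of 4.16 on the higher of these arrays and make up the comparison. Values are on the log2 scale, where a difference of 1 is 2-fold, and the background level is the median of all values. The mice were C57BL/6N males aged 8 to 12 weeks. The Iso mice carried an osmotic pump with ammonium bicarbonate vehicle and were given isoproterenol into the abdomen at 50 mg/kg per day for 11 days. The Iso+Insl6 mice had the same isoproterenol, and their pumps released INSL6 protein under the skin at 50 to 70 nmol/kg per day. The Control mice had vehicle pumps and saline. All ventricles were collected at 14 days, and each of the 3 arrays held a pool of 3 RNA samples. There was 1 array per group, so no difference has a replicate check, no p-value is given, and "higher" and "lower" speak of the arrays, not of the treatments. Where the dimmer array lay below background, a fold is written "at least", against 4.16.

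INSL6 is a secreted peptide of the insulin and relaxin family that is best known from the testis. Isoproterenol stimulates beta-adrenergic receptors, and its sustained use in mice is a model of cardiac injury with hypertrophy and fibrosis. Hepatocytes make most plasma proteins, and their gene programme depends on transcription factors such as HNF1 and HNF4. Many hepatocyte genes are also induced by glucocorticoids, the adrenal steroids that act through the receptor Nr3c1.

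Genes typical of liver set the comparison apart. On the Iso+Insl6 array 188 of the 12854 genes (1.46%) were at least 1.5-fold higher than on Iso, and 69 (0.537%) were at least 1.5-fold lower. Liver-typical genes made up 117 of the 188 and 1 of the 69. They were taken from 14 lists of plasma proteins and of hepatocyte enzymes, transporters, receptors and transcription factors. The lists were written with earlier results of these arrays known, so the counts are no independent evidence. These counts use the listed values; with any value below 4.16 raised to 4.16, 161 genes were higher and 37 lower, of which 98 and 1 were liver-typical. In all 343 liver-typical genes were measured and 179 were at or above background, with a median difference of 1.25. Of the 12675 other genes, 71 (0.56%) were at least 1.5-fold higher and 68 (0.536%) lower, with a median of 0.00. Another 54 genes that liver shares with fat, kidney, gut or muscle held 14 of the 71 and none of the 68. Outside every liver list 12621 genes remained, of which 57 (0.452%) were higher and 68 (0.539%) lower by that measure.

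Most of the transcriptome was listed at equal values. Of the 12854 genes, 6945 (54%) had the same value on Iso and Iso+Insl6 to 2 decimals, and 5503 had the same value on all 3 arrays. How such ties arose in the listed values was not tested. List medians of 0.00 rest in part on these ties and do not measure how stable the genes were. Among liver-typical genes at or above background only 10.1% were equal on Iso and Iso+Insl6. Their median level was 4.45 on Control, 4.36 on Iso and 5.37 on Iso+Insl6, so the Iso+Insl6 array stood above both others. A gene can enter the comparison through the Iso+Insl6 array alone, and 68 of the 179 did, since they lay below background on Iso. Over all 343 measured liver-typical genes the median difference was 0.44, with 152 at least 1.5-fold higher and 3 lower. When genes were instead chosen by their level on Control, which this difference does not use, 68 of 122 were higher, 1 was lower and the median was 0.81. The comparisons with Control share arrays with this difference and are given side by side only. For Iso+Insl6 minus Control, 114 of 181 liver-typical genes were at least 1.5-fold higher and 0 lower. For Iso minus Control the counts were 2 higher and 18 lower of 126.

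**Figure D1:**
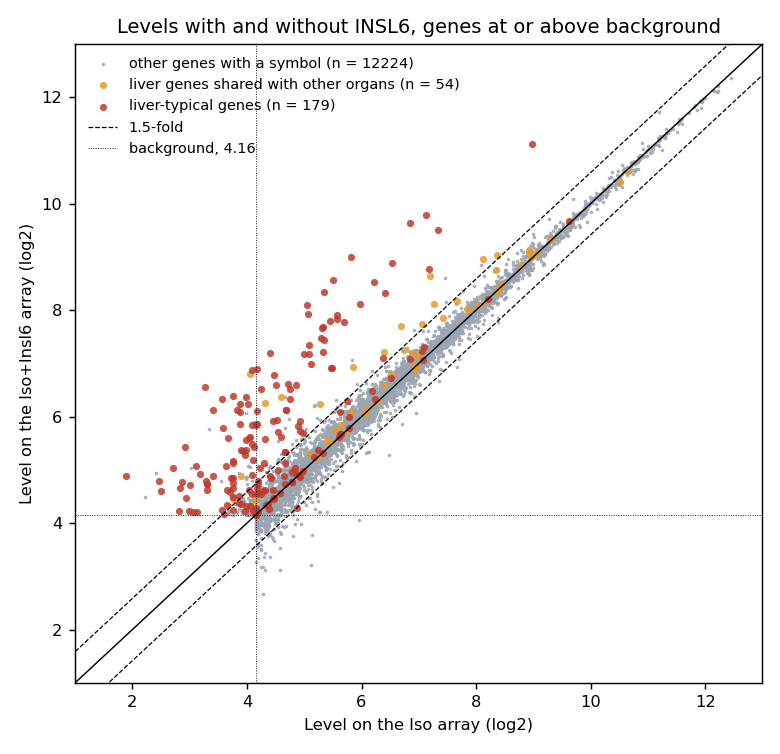
Level of each gene with a symbol on the Iso array (horizontal axis, log2) against the Iso+Insl6 array (vertical axis, log2), at or above the background of 4.16 on the higher array, with liver-typical genes, genes shared with liver and all other genes in separate colours. Liver-typical points lie mostly above the diagonal (117 at least 1.5-fold higher, 1 lower), while other genes lie close to it.

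The heart itself was present at like levels on all arrays. The summed level of 7 cardiomyocyte markers was 14.78 on Control, 14.80 on Iso and 14.78 on Iso+Insl6, and all 7 were above background. The summed level of 9 hepatocyte markers was 9.75, 9.76 and 12.01 in that order, and all 9 were above background. Of 6 markers of Kupffer cells and liver sinusoids, the resident macrophages and vessels of liver, only 1 was above background, with summed levels of 6.16, 6.16 and 6.17. Cd5l, Clec4f, Clec4g, Marco and Stab2 were below background on every array. Fibroblast markers (11.14, 11.11 and 11.18) and macrophage markers (8.02, 8.02 and 8.03) were level. Endothelial markers were at 11.20, 11.02 and 10.98 and smooth muscle markers at 9.56, 9.85 and 9.73. The 4 adipocyte markers and the neutrophil, T cell and B cell markers were all below background. In ventricle homogenate, more cells of a type and more RNA per cell cannot be told apart, and the part of hepatocyte markers in the differences below was not tested.

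Plasma carrier proteins were among the highest groups. Of 23 measured, 18 were at or above background, 15 were at least 1.5-fold higher and none was lower. The median was 1.77 (1.43 over all 23). Only 13 of the 18 were at or above background on Iso too. Albumin, the main protein of plasma, was listed for Alb at 8.78 on Control, 8.97 on Iso and 11.12 on Iso+Insl6. It was thus 4.44-fold higher on Iso+Insl6 than on Iso, while Control and Iso lay close together and both well above background. Gc, the vitamin D binding protein, was at 5.79, 5.07 and 7.92, or 7.21-fold higher than on Iso. Ttr, which carries thyroid hormone, was at 6.41, 6.41 and 8.32. Ahsg, the fetuin that holds calcium phosphate in solution, was at 6.42, 6.21 and 8.52. In each of these genes the Iso+Insl6 array was the high one. Serpina6, the corticosteroid-binding globulin, was below background on Control (3.61) and Iso (4.01) and at 6.23 on Iso+Insl6, at least 4.20-fold higher. Selenop, a selenium carrier that many tissues make, was at 9.63, 9.63 and 9.67 and did not follow this pattern.

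Among apolipoproteins, the proteins of lipoprotein particles, 17 of 20 were at or above background and 9 stood at least 1.5-fold higher (median 0.61, or 0.51 over all 20). Of the 17, 15 were at or above background on Iso too. Apoa2 stood at 6.56 on Control, 6.54 on Iso and 8.89 on Iso+Insl6 (5.10-fold). Apob, the scaffold of very low density lipoprotein, was at 5.37, 5.08 and 7.34. Apoa1, the main protein of high density lipoprotein, was at 5.29, 5.29 and 7.48. Apoc3, an inhibitor of lipoprotein lipase, was 4.26-fold higher at 7.17 against 5.08. The rest of the list was not uniform, and 5 members had equal values on both arrays. Among them were Angptl8, Apoa4, Mttp and Pon3.

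All 13 protease inhibitors at or above background, of 16 measured, were at least 1.5-fold higher. Only 8 of the 13 were at or above background on Iso too, and the others entered through the Iso+Insl6 array alone. Their median was 2.21 (1.94 over all 16 measured) and no member was equal. Of the Serpina1 paralogs, which encode alpha-1-antitrypsin, Serpina1d had the largest difference of the list, while Serpina1b lay below the list median. Serpina1d was at 5.99 on Control, 5.51 on Iso and 8.57 on Iso+Insl6, 8.34-fold higher than on Iso. Serpina1e was at 6.46, 5.35 and 8.35, Serpina1c at 7.30, 6.85 and 9.64, and Serpina1b at 7.35, 7.34 and 9.50. All 4 paralogs were highest on Iso+Insl6, and Serpina1c, 1d and 1e were lower on Iso than on Control. These genes are near copies, so that their probe sets may share signal and their values are uncertain as separate measurements. Mug1, a murinoglobulin of the alpha-2-macroglobulin family, was 6.96-fold higher at 7.20 against 4.40. Serpina3k was at 5.97, 5.58 and 7.90, and Serpinc1, the antithrombin gene, was below background on Control and Iso and at 5.49 on Iso+Insl6.

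Promoters of some of these genes are shown because they carry the recognition core of HNF1, the hepatocyte factor named above, and because they show how alike the Serpina1 copies are. Each line gives the 120 bases before the annotated start in RefSeq (GRCm38.p6), with GTTAAT or its complement ATTAAC in capitals. The stretches are chr5:90460750-90460869 (plus strand) for Alb, chr5:89457899-89458018 (minus) for Gc and chr3:83049864-83049983 (minus) for Fgb, the fibrinogen beta chain. Those of Serpina1b, 1c, 1d and 1e, all on the minus strand, are chr12:103738190-103738309, chr12:103904951-103905070, chr12:103773634-103773753 and chr12:103956898-103957017.
Alb: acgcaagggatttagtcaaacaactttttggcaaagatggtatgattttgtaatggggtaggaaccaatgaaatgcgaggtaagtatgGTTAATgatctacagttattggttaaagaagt
Gc: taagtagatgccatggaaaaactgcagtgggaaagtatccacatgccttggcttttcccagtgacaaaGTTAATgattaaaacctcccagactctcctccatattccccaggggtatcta
Fgb: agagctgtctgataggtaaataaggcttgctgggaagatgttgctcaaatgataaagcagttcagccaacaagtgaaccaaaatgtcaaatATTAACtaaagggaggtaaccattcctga
Serpina1b: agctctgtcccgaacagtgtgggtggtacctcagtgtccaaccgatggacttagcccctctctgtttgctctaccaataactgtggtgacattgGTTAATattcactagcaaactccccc
Serpina1c: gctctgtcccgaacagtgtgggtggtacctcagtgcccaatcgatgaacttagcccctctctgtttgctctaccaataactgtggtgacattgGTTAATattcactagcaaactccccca
Serpina1d: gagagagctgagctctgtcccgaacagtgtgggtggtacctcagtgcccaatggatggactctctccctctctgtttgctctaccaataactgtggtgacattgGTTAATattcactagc
Serpina1e: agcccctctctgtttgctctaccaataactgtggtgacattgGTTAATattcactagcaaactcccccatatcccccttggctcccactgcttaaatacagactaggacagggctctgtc

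The core begins 32 bases before the annotated start in Alb, 52 in Gc and 29 in Fgb. In the Serpina1 genes it begins 26 (Serpina1b), 27 (Serpina1c), 16 (Serpina1d) and 78 (Serpina1e) bases before the start, since the annotated starts lie at different points of the same stretch. Over the best ungapped shift of the 300-base windows, Serpina1c and Serpina1e were identical at 95.2% of 249 bases, Serpina1d and Serpina1e at 95% of 238, and Serpina1b and Serpina1d at 64.8% of 290. An ungapped count cannot allow for inserted or missing bases. The printed lines of Serpina1b and Serpina1d match at most positions once shifted, so 64.8% does not measure how alike those lines are. Searched on both strands, GTTAAT occurred in 6.23% of the 21466 promoter windows of all measured genes. It occurred in 21.4% of 98 windows of liver-typical genes at least 1.5-fold higher on Iso+Insl6, and in 20.5% of 215 windows of the other liver-typical genes. The share was therefore about as high in liver-typical genes that did not reach 1.5-fold. A match describes the letters of the window and is no evidence of binding.

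Coagulation genes were higher in the same direction. Of 20 measured, 14 were at or above background and 9 stood at least 1.5-fold higher. The median was 1.35 (0.74 over all 20). Only 8 of the 14 were at or above background on Iso too, and the others entered through the Iso+Insl6 array alone. The fibrinogen gamma chain Fgg was at 6.23 on Control, 5.33 on Iso and 7.69 on Iso+Insl6. Its partner Fgb was at 6.69, 5.98 and 8.11, and Plg, the plasminogen gene, at 4.90, 4.76 and 6.34. Fgg and Fgb were lowest on Iso and highest on Iso+Insl6. The clotting factor genes F7 (4.48 on both arrays) and F10 (4.65 on Iso, 4.88 on Iso+Insl6) differed little. Of 15 complement genes made by hepatocytes, 10 were at or above background and 8 were at least 1.5-fold higher on the listed values, with a median of 0.84 (0.74 over all 15). Most of them lay below background on Iso. C9, a component of the membrane attack complex, was at 3.67, 3.18 and 4.92, and Hc, which encodes complement C5, at 4.16, 3.76 and 5.12.

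Acute phase genes, which liver makes in response to inflammation, had a median of 2.09 (1.78 over all 12 measured), with 8 of 9 at least 1.5-fold higher. Only 5 of the 9 were at or above background on Iso too. Hamp, the iron hormone hepcidin, was at 4.86 on Control, 5.45 on Iso and 7.80 on Iso+Insl6. Hp, the haemoglobin scavenger haptoglobin, was at 6.15, 5.35 and 7.44. The serum amyloid gene Saa2 was at 6.69, 4.48 and 6.79, so its Iso+Insl6 level lay near Control and only Iso was low. Its near copy Saa1 was at 5.59, 3.98 and 6.37. Lbp, the lipopolysaccharide binding protein, was almost equal at 5.64, 5.63 and 5.68. Mup3, a pheromone carrier of mouse liver and a member of a family of near-identical genes, was at 7.77, 7.12 and 9.79, 6.36-fold higher than on Iso, and 3 of 6 Mup genes measured were at or above background.

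**Figure D2:**
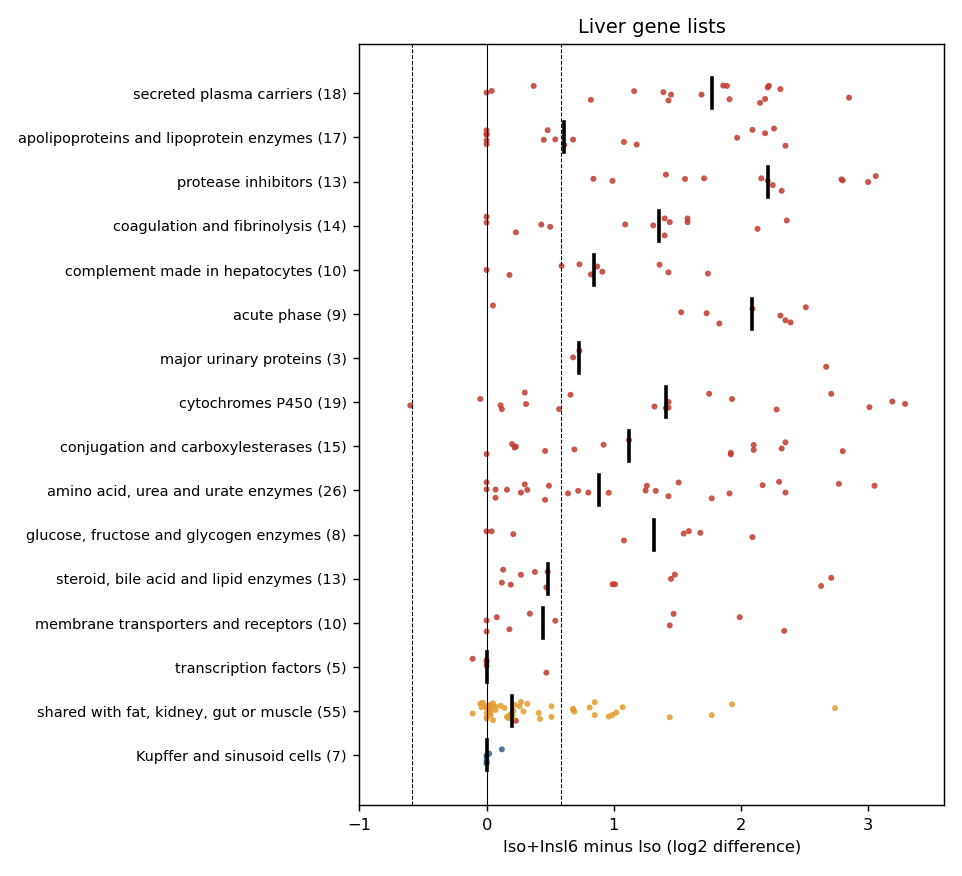
Difference between Iso+Insl6 and Iso (log2, horizontal axis) for members of each liver list at or above background, 1 row per list with each member as a point and the list median as a bar, beside dashed lines at 1.5-fold (the shared list also holds Ces1d, counted as liver-typical). Medians run from 0.00 in transcription factors and Kupffer cell genes to 2.21 in protease inhibitors.

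Among hepatocyte enzymes, cytochromes P450 gave the largest single differences. Of 59 measured, 19 were at or above background, 12 were at least 1.5-fold higher and 1 was lower. The median was 1.41 and drops to 0.28 over all 59. Only 11 of the 19 were at or above background on Iso too. Cyp2e1, which oxidises ethanol and many small toxins, was at 5.74 on Control, 5.81 on Iso and 9.0 on Iso+Insl6. That is 9.13-fold higher than on Iso, with Control and Iso nearly level. Cyp3a11, a broad drug oxidase, was at 4.60, 4.24 and 6.52, and Cyp2f2 at 5.02, 4.76 and 6.51. Cyp3a41b was below background on Control and Iso and at 6.55 on Iso+Insl6, at least 5.24-fold higher, and it too has close paralogs. Cyp2a22 was the 1 liver-typical gene at least 1.5-fold lower, at 4.42, 4.88 and 4.28, all near background. Of 53 conjugating enzymes and carboxylesterases measured, 15 were at or above background and only 6 of these on Iso too. Among the 15, 10 were at least 1.5-fold higher and the median was 1.12, which drops to 0.20 over all 53. The carboxylesterase Ces3a was at 5.04, 4.50 and 6.60, whereas the glutathione transferase Gsta4 was at 8.21 on every array.

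The list of amino acid, urea and urate enzymes held 44 measured genes, among them the receptor genes Asgr1 and Asgr2, which are no such enzymes and lay below background. Of the 44, 26 were at or above background and 16 were at least 1.5-fold higher (median 0.88, or 0.32 over all 44). Only 15 of the 26 were at or above background on Iso too. Tat, the tyrosine aminotransferase and a classical glucocorticoid-induced gene, was at 5.28 on Control, 5.04 on Iso and 8.09 on Iso+Insl6 (8.28-fold). Hpd, the next enzyme of tyrosine breakdown, was at 5.14, 5.31 and 7.66. Cps1, the first enzyme of the urea cycle, was at 5.09, 5.0 and 7.17. In all 3 Control and Iso lay close together and Iso+Insl6 was high. The urea cycle gene Ass1 was below background on all arrays and Arg1 was 1.65-fold higher at 5.69 against 4.97. In sugar metabolism, Fbp1, a gluconeogenic enzyme, was at 4.60, 4.18 and 5.86, and Khk, which phosphorylates fructose, was nearly level at 5.64, 5.64 and 5.68.

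Of 13 steroid, bile acid and lipid enzymes at or above background, 6 were at least 1.5-fold higher (median 0.48, or 0.41 over all 25 measured). They were led by the fatty acid transporter Slc27a2 at 5.33, 4.18 and 6.89. Of the 13, 9 were at or above background on Iso too. The list of membrane transporters and receptors also holds other genes, such as the enzyme gene Hsd11b1. Of its 10 genes at or above background, 4 were at least 1.5-fold higher (median 0.44, or 0.21 over all 24 measured). On Iso too, 6 of the 10 were above background. The 4 higher genes included Slc10a1, the bile salt uptake carrier, at 3.91, 3.88 and 5.87. None of the 5 liver transcription factors at or above background, of 13 measured, differed 1.5-fold. Hnf4a was at 4.70, 4.66 and 5.13, and Foxa2 was at 4.78 on all arrays. The 15 genes of Kupffer and sinusoid cells had 7 members at or above background, 0 past 1.5-fold and a median of 0.00.

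Genes that liver shares with other tissues had a median of 0.20 over 54 at or above background, with 14 at least 1.5-fold higher (25.9%) and 0 lower. Car3, a carbonic anhydrase of liver, fat and muscle, was at 4.96 on Control, 4.06 on Iso and 6.80 on Iso+Insl6. Pck1, which starts gluconeogenesis, was at 4.45, 4.32 and 6.25, and Trf, the iron carrier transferrin, at 7.30, 7.20 and 8.64. Car3 was the only 1 of these below background on Iso. Complement C3 was 1.80-fold higher (8.97 against 8.12) and Apoe 1.60-fold higher (9.04 against 8.36). Serpina3n, an acute phase inhibitor that heart also makes, was at 6.30, 7.27 and 8.12, and was already higher on Iso than on Control. Others were level, such as Fabp4 (10.51 on Iso, 10.40 on Iso+Insl6) and Cat (10.66 and 10.62).

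Genes known to be induced by glucocorticoids stood higher on Iso+Insl6 also outside the liver lists. Of 34 such genes measured, 32 were at or above background, of which 31 were higher, 0 lower and 1 equal, and the median was 0.35. Without every gene on a liver list, 28 of 30 were at or above background, 27 were higher and 6 reached 1.5-fold. Over all 12621 genes outside the liver lists, 26.8% were higher by any amount, 18.4% were lower and 0.452% were at least 1.5-fold higher. The median of the 28 was 0.30 against 0.00 over the 12621 genes. Most of these differences were small, and only 6 of the 28 reached 1.5-fold. The list was written with earlier results of these arrays known, so its direction is no independent evidence. Its members were chosen from what is known of steroid response in several tissues, liver included.

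Ddit4, an inhibitor of mTORC1, was at 5.73 on Control, 4.73 on Iso and 5.95 on Iso+Insl6, 2.33-fold higher than on Iso. Zbtb16, a zinc finger repressor, was at 7.25, 7.46 and 8.60 (2.20-fold). Fkbp5, a co-chaperone that restrains the glucocorticoid receptor, was at 5.29, 5.17 and 6.20 (2.04-fold). Zbtb16 and Fkbp5 were near level between Control and Iso and high on Iso+Insl6, whereas Ddit4 was low on Iso and near Control on Iso+Insl6. Errfi1, a feedback inhibitor of the EGF receptor, followed the second pattern at 7.71, 6.92 and 7.62. Fam107a, an actin-binding stress gene, was at 4.59, 5.23 and 5.98. Arrdc2, an arrestin-domain gene, was at 5.0, 5.0 and 5.69. These 6 thus split into 2 that stood near Control and 4 that stood above both other arrays.

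Smaller differences ran the same way in the rest of the list. Per1, a clock repressor, was at 6.58 on Control, 7.60 on Iso and 7.96 on Iso+Insl6. Klf15, a metabolic regulator in heart, was at 5.93, 6.25 and 6.57, and Tsc22d3, also called GILZ, at 6.36, 6.81 and 7.03. In these 3 the order was Control, Iso, Iso+Insl6 from low to high. Sgk1, a salt-handling kinase, was at 5.92, 5.31 and 5.65, and Cdkn1a, the cell cycle inhibitor p21, at 7.55, 6.43 and 6.70, with Iso+Insl6 between Iso and Control. Mt1, a metallothionein, was equal at 11.21. The receptor gene Nr3c1 was at 8.13, 8.24 and 8.12. The DNA motif core of the glucocorticoid receptor, ACANNNTGT on both strands, occurred in 17.5% of 40 promoter windows of these genes, 7 windows in all, and in 6% of all windows. It occurred in 13.3% of windows of liver-typical genes at least 1.5-fold higher and in 9.3% of those of other liver-typical genes. GTTAAT occurred in 2.5% of the 40. Those 40 windows came from 26 genes, so some genes had several windows, and a match is no evidence of binding. The part of the hepatocyte markers in these differences was not tested.

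**Figure D3:**
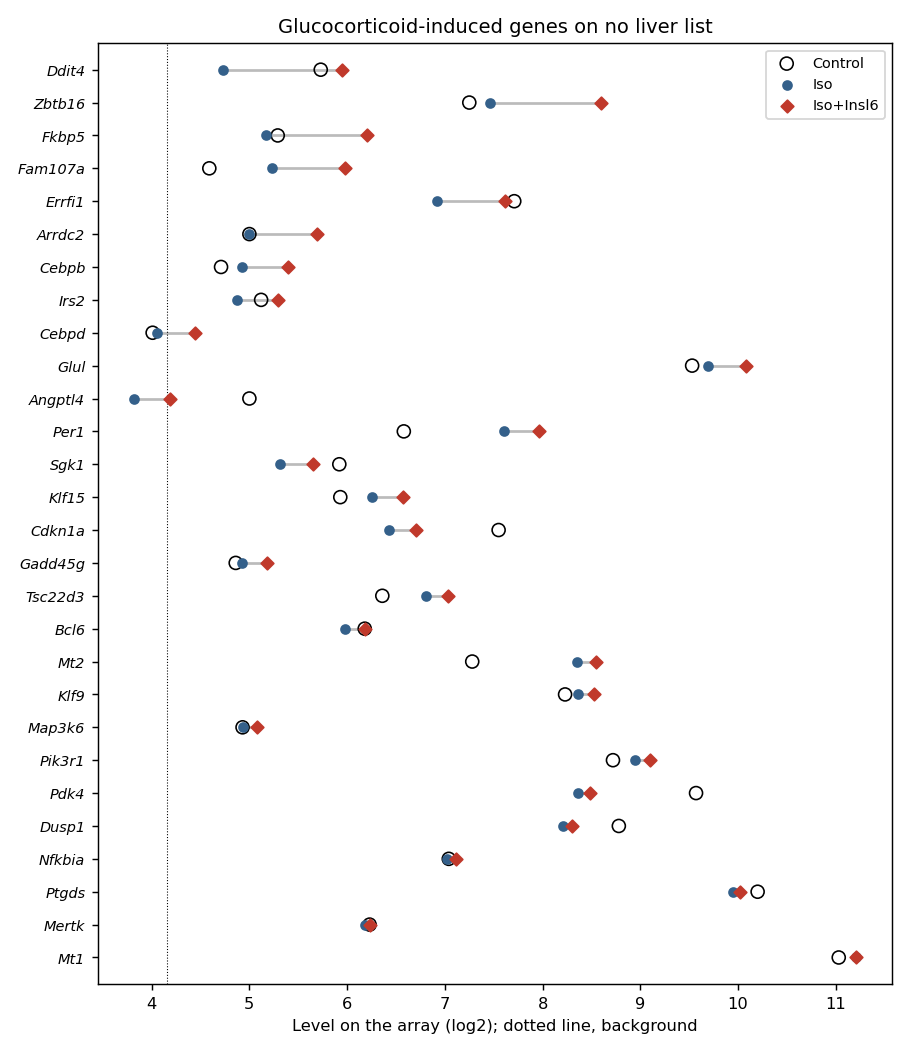
Level on each of the 3 arrays, marked Control, Iso and Iso+Insl6 (log2, horizontal axis) for each of the 28 glucocorticoid-induced genes on no liver list that were at or above background, 1 gene per row, with the background level of 4.16 as a dotted line. The Iso+Insl6 point lies right of the Iso point in 27 genes and on it in Mt1.

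The members of the cardiac stress list did not differ 1.5-fold. Of 19 at or above background, 6 were higher and 8 lower, with a median of 0.00. Over all 12621 genes outside the liver lists, 26.8% were higher and 18.4% lower by any amount. Nppa, the atrial natriuretic peptide, was at 10.99 on Control, 11.19 on Iso and 11.72 on Iso+Insl6, the largest difference of the list at 0.53. Nppb, its ventricular counterpart, was at 10.08, 9.49 and 9.35. The skeletal actin gene Acta1 was at 8.50, 8.93 and 8.66. Nppa was therefore highest and Nppb lowest on Iso+Insl6, both by less than 1.5-fold from Iso. Contractile genes (21 at or above background), calcium handling genes (18), ion channels and connexins (23) and adrenergic and cAMP genes (34) also centred on a median of 0.00, without a member at 1.5-fold. Kcna5, a potassium channel of the atrial and ventricular membrane, was at 5.81, 5.31 and 5.77, and the adenylyl cyclase Adcy6 had the largest difference among adrenergic genes at 7.62, 7.84 and 8.15.

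Fibrosis genes were close to level. The 18 collagens at or above background had a median of 0.03 and none differed 1.5-fold. Col1a2, a chain of the main fibrillar collagen, was at 6.90 on Control, 7.19 on Iso and 7.41 on Iso+Insl6. Postn, the periostin of activated fibroblasts, was at 7.24, 7.66 and 7.93. Both were highest on Iso+Insl6, and by less than 1.5-fold over Iso. Other matrix genes (35) and TGF-beta signalling genes (27) centred on 0.00 with no member at 1.5-fold. Eln, the elastin gene, was at 5.92, 5.04 and 5.40, and Fbn1, the fibrillin of elastic fibres, at 7.72, 7.54 and 7.24. Of 18 matrix proteases and inhibitors, only Timp4, a tissue inhibitor of metalloproteinases that is abundant in heart, reached 1.5-fold. It was at 5.77, 5.55 and 6.31, highest on Iso+Insl6. Timp3 was at 8.44, 9.01 and 9.38, while Timp1 (3.87) was below background and Ccn2 (6.55) was listed at that value on all arrays.

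Fibroblast, vascular, hypoxia and macrophage lists had medians between -0.01 and 0.02 and no member at 1.5-fold. Among 19 fibroblast genes, Wif1, a secreted Wnt inhibitor, was at 4.84, 5.36 and 4.86, and Meox1, a transcription factor of activated fibroblasts, at 5.86, 5.41 and 4.93. Vtn, an adhesion protein that pericytes and also hepatocytes make, was the largest of 13 smooth muscle and pericyte genes at 7.07, 6.71 and 7.25. Gpihbp1, which holds lipoprotein lipase on capillaries, led the 22 endothelial genes at 6.95, 6.46 and 6.95. Wif1 and Gpihbp1 stood at or near Control on the Iso+Insl6 array. In the 19 angiogenesis and hypoxia genes, 10 were lower and 4 higher, beside 18.4% lower and 26.8% higher over all genes outside the liver lists. Egln3, the oxygen-sensing prolyl hydroxylase, was at 9.15, 8.38 and 7.85, and the peptide gene Apln at 5.45, 4.60 and 4.25. For both genes Control was high and Iso+Insl6 low. The 19 macrophage genes had 4 higher, 4 lower and 11 equal.

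**Figure D4:**
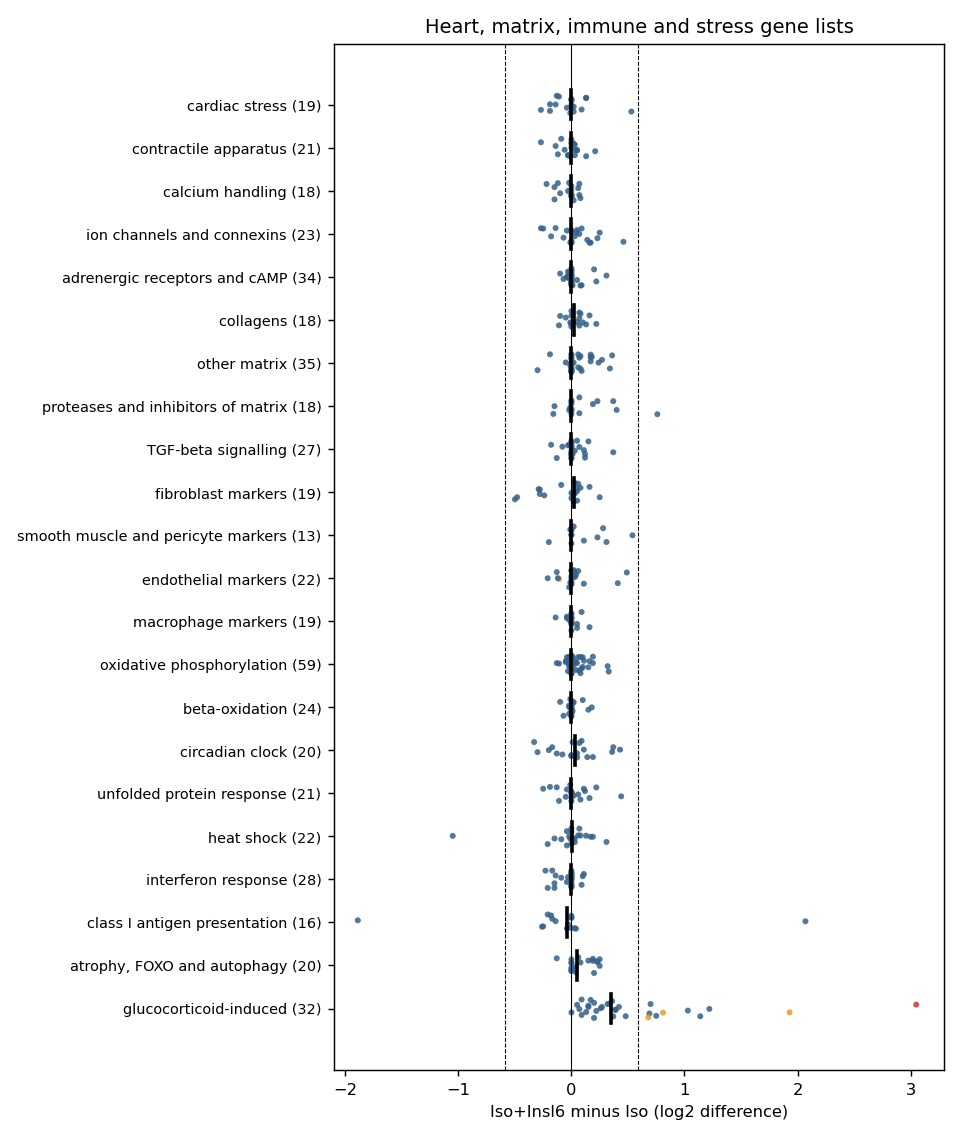
Difference between Iso+Insl6 and Iso (log2, horizontal axis) for members at or above background of lists outside liver, 1 row per list, with members as points (liver-typical in red, shared with liver in orange), the list median as a bar and 1.5-fold as dashed lines. Cardiac, matrix and vascular lists centre on 0, and Timp4 is the matrix gene farthest to the right.

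Mitochondrial lists were close to level, and clock genes differed little in the median. None of 59 oxidative phosphorylation, 24 beta-oxidation, 18 TCA cycle or 20 clock genes at or above background differed 1.5-fold. Their medians lay between 0.00 and 0.03. Of the 20 clock genes, 11 were higher, 6 lower and 3 equal, with differences from -0.33 to 0.43. Of 25 genes of glucose transport and glycolysis at or above background, 9 were higher and 8 lower (median 0.00), and only Pgam1 passed 1.5-fold, at 4.02 on Iso, below background, and 5.08 on Iso+Insl6. Of 17 genes of fatty acid and triglyceride synthesis, 11 were higher and 0 lower, with a median of 0.12. Only 8 of them were on no liver list, of which 6 were higher and 0 lower (median 0.14). By any amount, 26.8% of all genes outside the liver lists were higher and 18.4% lower. Scd1, the stearoyl-CoA desaturase, was the only 1 of the 17 past 1.5-fold, at 5.59, 5.86 and 6.93, and liver also makes it. Fads2, a desaturase on no liver list, was at 5.47, 5.44 and 5.93, and Srebf1, the regulator of the pathway, at 5.52, 5.18 and 5.52. Among 20 atrophy, FOXO and autophagy genes 12 were higher, 1 was lower and none reached 1.5-fold (median 0.05). These counts too stand beside 26.8% higher and 18.4% lower over all genes outside the liver lists. The muscle ubiquitin ligases Trim63 (8.35, 8.51 and 8.76) and Fbxo32 (8.54, 8.65 and 8.90) differed most and had the same order of arrays. In the ATF4 and amino acid list 3 of 17 were at least 1.5-fold higher, beside a median of 0.00. They were Ddit4, Nupr1 (5.49, 4.78 and 5.49) and the liver-typical Cth (4.93, 4.93 and 5.73). Without genes on liver lists, 2 of 16 were at least 1.5-fold higher, beside 0.452% of all genes outside those lists. Herpud1 of the unfolded protein response was at 8.90, 9.28 and 9.72.

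In antigen presentation and interferon response most differences were small. Of 16 class I genes at or above background 9 were lower and 3 higher (median -0.04). H2-D1, a classical class I heavy chain, was at 8.92 on Control, 8.92 on Iso and 8.67 on Iso+Insl6, and H2-K1 at 6.90, 6.90 and 6.72. Their light chain gene B2m was at 10.95, 10.83 and 10.66, so Iso+Insl6 was the lowest array for all 3. H2-Q10, a secreted class I protein that liver makes, was at 4.79, 3.99 and 6.06, at least 3.73-fold higher than on Iso. H2-Q7 went the other way at 4.73, 5.11 and 3.22, or at least 1.93-fold lower. The H2-Q genes are close copies, and their probe sets are uncertain. Of 28 interferon response genes 9 were lower, 3 higher and 16 equal, none by 1.5-fold. Over the 12621 genes outside the liver lists, 18.4% were lower and 26.8% higher by any amount.

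The gene of the infused peptide and the receptors of its relatives were below background. Insl6 was listed at 1.89, Rxfp1, the relaxin receptor, at 1.93 and Rxfp2, the INSL3 receptor, at 1.64, each with the same value on every array. In the list of relaxin family, insulin and insulin-like growth factor genes, 12 of 22 were at or above background. Of these 9 were higher, 1 lower and none at 1.5-fold, beside 26.8% higher and 18.4% lower over all genes outside the liver lists.

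The largest differences outside the liver lists were again led by genes that liver or kidney expresses. Upp2, a uridine phosphorylase of liver, was at 2.96 on Control, 3.34 on Iso and 5.76 on Iso+Insl6, at least 3.03-fold higher than on Iso. Acnat1, an acyltransferase gene, was at 3.26, 2.41 and 4.94 and Nat8f2 at 4.58, 4.13 and 5.89. Kap, the androgen-regulated protein of kidney, was at 6.05, 4.67 and 6.36, 3.23-fold higher than on Iso and near Control. The summed level of 4 kidney markers was 6.88 on Control, 6.01 on Iso and 7.10 on Iso+Insl6, with Lrp2 and Umod below background. Of 12 kidney genes, 4 were at or above background and only Kap reached 1.5-fold. Other genes of this end included Sprr1a, a cornified envelope protein induced in stressed cardiomyocytes, at 3.91, 4.66 and 5.78. Ly6c1, of endothelium and monocytes, was at 5.03, 5.18 and 6.22. Pgam1, a glycolytic enzyme, was at 5.32, 4.02 and 5.08, low on Iso alone.

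At the low end stood Scgb1a1, the secretory protein of airway club cells, at 5.90 on Control, 5.96 on Iso and 4.06 on Iso+Insl6, at least 3.48-fold lower. The summed level of 3 lung markers was 6.60, 6.69 and 5.48. Of 12 lung genes measured, 6 were at or above background, and only 4 of these on both arrays. Among the 6, 5 were lower and 0 higher, but only Scgb1a1 reached 1.5-fold. Outside the liver lists, 18.4% of genes were lower and 26.8% higher by any amount. Sftpc, a surfactant protein, was at 4.42, 4.54 and 4.0. The part of lung markers in these values was not tested. Hspa1a, the inducible heat shock protein, was at 4.72, 4.58 and 3.53, and Rpl23a, a ribosomal protein, at 4.73, 5.39 and 4.20. Of 34 ribosomal protein genes at or above background, 11 were higher, 13 lower and 10 equal, and the median was 0.00. Rpl23a and Rpl19 (4.07, 4.24 and 3.17) were at least 1.5-fold lower as listed. Rpl19 was below background on Control and Iso+Insl6. Ribosomal protein genes have many pseudogene copies, which makes these values uncertain. Snrpc, a splicing protein, was at 6.24, 6.71 and 5.87.

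**Figure D5:**
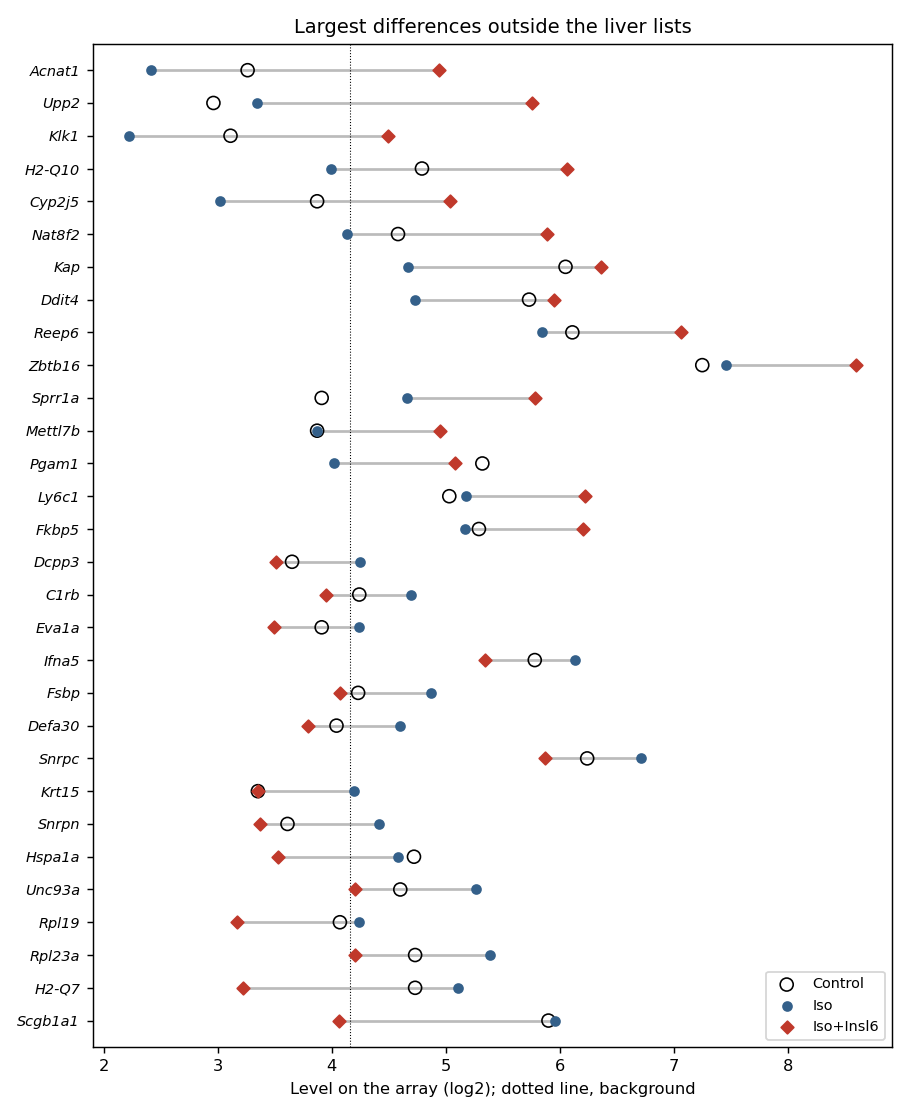
Level on each of the 3 arrays, marked Control, Iso and Iso+Insl6 (log2, horizontal axis) for the 15 genes highest and the 15 genes lowest on Iso+Insl6 relative to Iso outside the liver lists, 1 gene per row, with the background of 4.16 as a dotted line. Most genes of the low end lie near background, and Scgb1a1 runs from 5.96 on Iso to 4.06 on Iso+Insl6.

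Lower differences lay nearer background than higher ones. Outside the liver-typical lists, 38 of 3016 genes with a level between 4.16 and 5 on the higher array were at least 1.5-fold lower and 18 higher, and the standard deviation of the difference across those genes was 0.18. Among 4897 genes between 6 and 8, 9 were lower and 20 higher, with a standard deviation of 0.13. Outside all liver lists, predicted genes, receptor families and small RNAs, which are counted here and not named, held 40 of the 68 lower genes (3.03% of 1318). Where both arrays were above background, 34 of 12320 genes outside the liver lists were higher (0.276%) and 27 lower (0.219%).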

How the data were processed

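Expression in left ventricle was measured on 3 arrays, 1 per group. The authors deposited log2 values per probe set with 2 decimals, for which the submitters' processing notes name RMA and the affy package, version 1.36.1; the array type, settings and build are not given in the sources used here. All 3 arrays had a median of 4.16, and 0 columns were left unmatched. Each probe set is an Entrez gene number, and RefSeq (GRCm38.p6) gave symbols to 23740 of 25206 and none to 1466. Differences were Iso+Insl6 minus Iso, counted at 1.5-fold (log2 0.585) among genes at or above 4.16 on the higher array. Precision is limited by the number of arrays and by the pooling of RNA, and no test was run. The members and all gene lists were chosen with earlier results of these data known.

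Genes were named as the 15 largest differences per direction outside the liver lists, with predicted genes, receptor families and small RNAs left aside, up to 4 members per list and a short list of heart and INSL6 genes. Members with equal or near-equal values, and those of the liver zones, were chosen after their values were seen. Promoter windows of 300 bases, 250 of them upstream, were matched by gene. Python 3.11.15, pandas 2.3.3, R 4.3.3 and limma 3.58.1 were used, and counting was tested on simulated data. Alternatives were other thresholds, filters, scalings and list summaries. Some genes covered by this rule enter the counts but are not reported here.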

Additional observations from a re-analysis of the deposited data

How the results depend on the processing

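No paired analysis was possible because each group has 1 array. Of genes outside the liver-typical lists, 26 were higher and 17 lower at 2-fold, 168 and 207 with no filter on level, and 44 and 23 with the filter 1 log2 unit above background. Leaving out the shared liver genes and the liver or kidney genes seen in the ranking left 40 higher, a choice made after seeing the data. Liver-typical genes at least that much lower numbered 0 at 2-fold, 3 with no filter and 0 with the stricter filter. Chosen on Control, also after seeing the data, 68 liver-typical genes were higher. Means in place of medians gave 1.55 for plasma carriers, 0.93 for apolipoproteins, 2.08 for protease inhibitors, 1.10 for coagulation, 1.87 for acute phase, 1.36 for Mup genes, 1.29 for conjugation, 1.09 for amino acid enzymes, 1.03 for glucose enzymes, 0.95 for steroid and lipid enzymes, 0.84 for transporters, 0.40 for shared genes, 0.54 for glucocorticoid-induced genes, 0.12 for fasting genes, 0.60 for kidney, -0.50 for lung and 0.16 for ATF4 genes. Medians over all measured members were 1.43 for plasma carriers, 1.94 for protease inhibitors, 0.74 for coagulation, 1.78 for acute phase, 0.41 for Mup genes, 0.28 for P450s, 0.20 for conjugation, 0.32 for amino acid enzymes, 0.55 for glucose enzymes, 0.21 for transporters, 0.01 for kidney and 0.00 for erythroid, pancreas and gut, and atrial genes. These alternatives count other genes or weight members differently by construction. Centring, cyclic loess and quantile normalization kept all 4 counts within 1.5 times, and all 69 list medians and 302 named genes within 0.1. No called direction was reversed in these alternatives. With 1 array per group, no alternative shows how far pools of the same treatment would differ, and values near background are least reliable.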

Other observations

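Hepatocytes differ along the liver lobule, and some genes known from each of its zones were highest on Iso+Insl6. Cyp1a2, a drug oxidase of hepatocytes around the central vein, was at 4.47 on Control, 4.69 on Iso and 6.12 on Iso+Insl6. Rgn, also called regucalcin and made throughout the lobule, was at 4.07, 4.04 and 5.59. Of genes known from around the portal vein, Cyp2f2 was at 5.02, 4.76 and 6.51 and Hal, the histidine ammonia-lyase, at 3.61, 3.66 and 4.62. Glul, the glutamine synthetase of the central vein and also a heart gene, was at 9.53, 9.69 and 10.08. Not all followed: Lgr5, a receptor of the central vein zone, was at 2.36 on all arrays, and Sds, a periportal serine dehydratase, at 4.34. Pigr, the immunoglobulin transporter of epithelia and hepatocytes, was at 4.20, 4.13 and 5.16. These genes were picked after their values were seen, and no comparison between the zones was tested.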
